A study of Mus musculus with 6 samples.

Results

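CXC chemokines are small secreted proteins that steer leukocytes, and 9 of their genes were followed in cultured mouse keratinocytes with and without the maintenance DNA methyltransferase DNMT1. The genes were taken as a named list, drawn up with earlier results of these data known, and are Cxcl1, Cxcl2, Cxcl3 and Cxcl5, which attract neutrophils, Cxcl9 and Cxcl10, which are classed as interferon-induced, and Cxcl12, Cxcl14 and Cxcl16, which are classed as constitutive. They make up 9 of the 43629 genes of the count table, and 8 of them were among the 16829 genes with enough reads to be tested, Cxcl9 being the exception. In Dnmt1Δ/Δep keratinocytes all 4 neutrophil-attracting genes were upregulated, by 8.0-fold to 28.1-fold, Cxcl10 was upregulated 3.16-fold and Cxcl12 2.27-fold. Cxcl16 rose 1.48-fold and Cxcl14 did not pass the test.

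Epidermis was taken at postnatal day 3 from 3 control and 3 Dnmt1Δ/Δep mice, and poly(A) RNA of the keratinocytes grown from it was sequenced as 1 library per mouse. The labels call the groups control and Dmnt1 knock-out (spelled so), and give all 6 mice as female. In Dnmt1Δ/Δep mice a Cre recombinase driven by the keratin 5 promoter, which is active in basal epidermal cells, deletes both floxed Dnmt1 alleles. The progeny of these cells inherit the deletion. Control mice carried floxed Dnmt1 without Cre, and all mice had a mixed C57BL/6J and 129SV background. Both groups grew in the same medium with chelated serum and 0.05 mM CaCl2, for 5 days by the labels and methods and for 72 h by a figure legend. The replicates were separate mice, so p-values measure the spread between mice, and with 3 against 3 an exact permutation test of a single value cannot go below p = 0.1.

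Levels are given as CPM, counts per 1000000 gene reads of a library after scaling by its TMM factor. Dnmt1 itself was at 394, 379 and 324 CPM in control and at 49.7, 54.3 and 50.7 CPM in Dnmt1Δ/Δep libraries, a log2 fold change of -2.83 (SE 0.11, adjusted p = 8.1e-05 from edgeR). Gene reads per library lay between 53433121 and 115526598, so that a count of 0 allows a level of up to 0.0254 to 0.0558 CPM (3 counts, counting error only). Control replicate 1 stood apart from the other 2 controls. It had the highest levels of all 4 neutrophil-attracting chemokines among the controls and the lowest level of the differentiation keratin Krt1 (53.2 CPM against 356 and 530), close to the 66.1, 59.2 and 65.5 CPM of the Dnmt1Δ/Δep libraries. The same-numbered control and Dnmt1Δ/Δep libraries shared a flow-cell lane.

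CXC chemokines bind G protein-coupled receptors on leukocytes and are named for a pair of cysteines separated by one residue. Members with a Glu-Leu-Arg motif before these cysteines, among them CXCL1, CXCL2, CXCL3 and CXCL5, act on CXCR2 and recruit neutrophils, and keratinocytes make them rapidly after interleukin-1, interleukin-17 or TNF, which act through NF-kappaB. CXCL9 and CXCL10 bind CXCR3 and attract activated T cells and natural killer cells, CXCL12 guides cells that carry CXCR4, CXCL14 is made by resting epithelium, and CXCL16 is a membrane-anchored ligand of CXCR6 that the protease ADAM10 sheds.

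The promoters of 7 of the 9 genes were found in the set of RefSeq promoters used, on GRCm38.p6. That set held no entry under the names Cxcl5 and Cxcl16. The 250 bases before each RefSeq start were searched on both strands for the NF-kappaB (kappaB) consensus and for the repeat of an interferon-stimulated response element, GAAA followed after any 2 bases by GAAA. Stretches of 5 of them are printed 5′ to 3′ on the gene's strand, namely those of the 5 genes with a match to either motif. Capitals mark the matches to either motif. Each stretch stops before the gene as GENCODE M21 draws it, which is short of the RefSeq start by 4 bases for Cxcl1 and by 28 bases for Cxcl2.
Cxcl1 (chr5:90891125-90891240, + strand): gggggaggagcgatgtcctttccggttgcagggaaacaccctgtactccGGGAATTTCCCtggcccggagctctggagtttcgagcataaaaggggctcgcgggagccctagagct
Cxcl2 (chr5:90903779-90903870, + strand): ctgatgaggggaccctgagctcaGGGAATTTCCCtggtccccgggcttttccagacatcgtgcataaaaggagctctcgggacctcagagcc
Cxcl3 (chr5:90785981-90786100, + strand): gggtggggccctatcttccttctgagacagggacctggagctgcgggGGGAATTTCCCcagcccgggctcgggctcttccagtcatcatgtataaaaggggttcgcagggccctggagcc
Cxcl10 (chr5:92348890-92349129, - strand): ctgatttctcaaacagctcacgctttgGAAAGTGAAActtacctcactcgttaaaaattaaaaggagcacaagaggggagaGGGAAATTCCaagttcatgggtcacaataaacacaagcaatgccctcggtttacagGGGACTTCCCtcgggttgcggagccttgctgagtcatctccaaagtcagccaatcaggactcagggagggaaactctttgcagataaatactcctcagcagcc
Cxcl14 (chr13:56296552-56296731, - strand): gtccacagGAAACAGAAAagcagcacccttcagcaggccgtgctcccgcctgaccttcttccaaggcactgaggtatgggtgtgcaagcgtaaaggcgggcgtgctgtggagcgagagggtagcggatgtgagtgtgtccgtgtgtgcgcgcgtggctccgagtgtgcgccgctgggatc

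Cxcl1, Cxcl2 and Cxcl3 held the same 11 bases, GGGAATTTCCC, at -71 to -61, -97 to -87 and -73 to -63 from the RefSeq start. These letters were read from the same promoters, as the run that Cxcl1, Cxcl2 and Cxcl3 share. They stood in 14 of the 32851 promoters (0.0426%), these genes included, and the kappaB consensus, which they contain, in 3.9%. Cxcl10 held 2 other kappaB matches, GGGAAATTCC at -159 to -150 and GGGACTTCCC at -103 to -94, together with GAAAGTGAAA at -213 to -204. The GAAA repeat stood in 2.98% of all promoters. Cxcl14 held a match to it, GAAACAGAAA at -172 to -163, and none to the kappaB consensus, and Cxcl9 and Cxcl12, of which Cxcl12 was upregulated, held neither motif in this window. Neither did Ppbp, the CXC gene next to Cxcl5. The number of CpG dinucleotides in the 250 bases was 10 for Cxcl1, 9 for Cxcl2, 7 for Cxcl3, 3 for Cxcl9, 5 for Cxcl10, 14 for Cxcl12 and 16 for Cxcl14, beside a median of 6 over all promoters (quartiles 2 and 16). A match describes letters only, and no binding or methylation was measured in these libraries.

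Across the 9 genes, 6 of the 8 tested were called upregulated, where 6.03% of all tested genes were. A call required a log2 fold change past 1 in size together with an adjusted p of 0.05 or less in edgeR's quasi-likelihood test. By the adjusted p alone, in either direction, 7 of the 8 passed, beside 9.36% of all tested genes. None of the 8 was called downregulated, by edgeR or by DESeq2, and none was lower at an unadjusted p under 0.05. In 7 of the 8, every Dnmt1Δ/Δep library lay above every control library, which held for 18.2% of all tested genes. Of all tested genes 0.392% were called downregulated, and the median log2 fold change over them was 0. Fewer chemokines were called without Dnmt1Δ/Δep replicate 1 (2 of 8), Dnmt1Δ/Δep replicate 2 or 3 (3 of 8 each) and control replicate 2 or 3 (4 of 8 each). In the same order, these fits called 591 of 17309, 682 of 17496, 761 of 16973, 559 of 17298 and 915 of 17346 tested genes upregulated. Without control replicate 1 the number of chemokines stayed at 6, beside 1183 of 17219 genes.

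**Figure D1:**
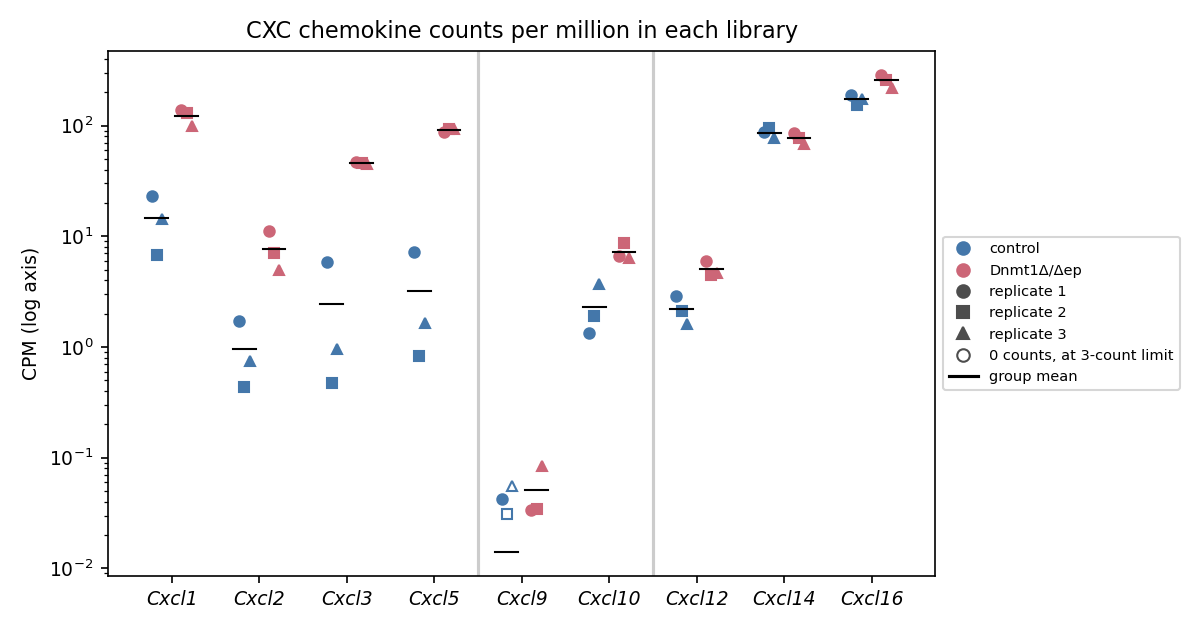
CPM (log axis) of the 9 CXC chemokine genes in each of 3 control (blue) and 3 Dnmt1Δ/Δep (red) libraries, with the shape giving the replicate and the line the group mean. Grey lines part the neutrophil-attracting, interferon-induced and constitutive genes, and open markers stand at the limit of 3 counts where the count was 0. The groups are apart for every gene but Cxcl9 and Cxcl14.

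Cxcl1 (ENSMUSG00000029380, chr5:90891241-90893115 on GRCm38, + strand), the main neutrophil chemokine of mouse epithelium together with Cxcl2, was measured at 23.0, 6.75 and 14.2 CPM in control and 139, 129 and 100 CPM in Dnmt1Δ/Δep replicates 1, 2 and 3. The lowest Dnmt1Δ/Δep library was well above the highest control, and the control libraries varied more among themselves than the Dnmt1Δ/Δep libraries did, relative to their mean (14.7 ± 8.14 against 123 ± 20.2 CPM, SD, n = 3). The log2 fold change was 3.06 (SE 0.42, adjusted p = 0.0056 from edgeR), and the ratios within the 3 lanes were 2.6, 4.25 and 2.82 on the log2 scale. Cxcl1 was called in each of 12 alternative fits, 6 of which left out 1 library each, with log2 fold changes from 2.72 to 3.56.

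Cxcl2 (ENSMUSG00000058427, chr5:90903871-90905938, + strand) lies 12630 bp downstream of Cxcl1 and encodes a closely related CXCR2 ligand. It was at 1.7, 0.431 and 0.745 CPM in control and 11.2, 7.12 and 4.92 CPM in Dnmt1Δ/Δep libraries. The groups did not overlap, and the order of the 3 control libraries was that of Cxcl1. Its log2 fold change was 3.0 (SE 0.54, adjusted p = 0.016 from edgeR), beside 3.06 for Cxcl1, and within the lanes the log2 ratios were 2.7, 3.98 and 2.69. Without control replicate 1 the log2 fold change rose to 3.75. The call was lost without Dnmt1Δ/Δep replicate 1, the library with the highest value (log2 fold change 2.64, adjusted p = 0.06 from edgeR).

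Cxcl3 (ENSMUSG00000029379, chr5:90786103-90789600, + strand), a further CXCR2 ligand, was at 5.86, 0.472 and 0.949 CPM in control and 47.2, 45.8 and 44.6 CPM in Dnmt1Δ/Δep libraries. The Dnmt1Δ/Δep libraries lay close together (45.9 ± 1.31 CPM), whereas control replicate 1 was several-fold above the other controls (2.43 ± 2.98 CPM, SD, n = 3). The log2 fold change was 4.22 (SE 0.85, adjusted p = 0.024 from edgeR) with all libraries and 6.08 (adjusted p = 0.00023 from edgeR) without control replicate 1. Within lanes the log2 ratios were 3.0, 6.53 and 5.52. With fewer libraries the call was lost 4 times, without control replicate 3 (adjusted p = 0.054 from edgeR) and without Dnmt1Δ/Δep replicate 1, 2 or 3 (adjusted p = 0.077, 0.065 and 0.06 from edgeR), at log2 fold changes between 3.86 and 4.24. Cxcl1, Cxcl2 and Cxcl3 are related in sequence, and reads that mapped to more than 1 place were not counted.

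Cxcl5 (ENSMUSG00000029371, chr5:90759360-90761624, + strand), an epithelial CXCR2 ligand whose product is also known as LIX in the mouse, had the largest fold change of the 8 tested genes. Its levels were 7.22, 0.831 and 1.64 CPM in control and 88.2, 93.5 and 93.5 CPM in Dnmt1Δ/Δep libraries. As for Cxcl3, the Dnmt1Δ/Δep libraries were nearly alike and control replicate 1 was the highest control. The log2 fold change was 4.81 (SE 0.76, adjusted p = 0.0096 from edgeR). It was called in each of the 12 alternative fits and reached 6.27 without control replicate 1, and its log2 ratios within lanes were 3.61, 6.77 and 5.81.

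**Figure D2:**
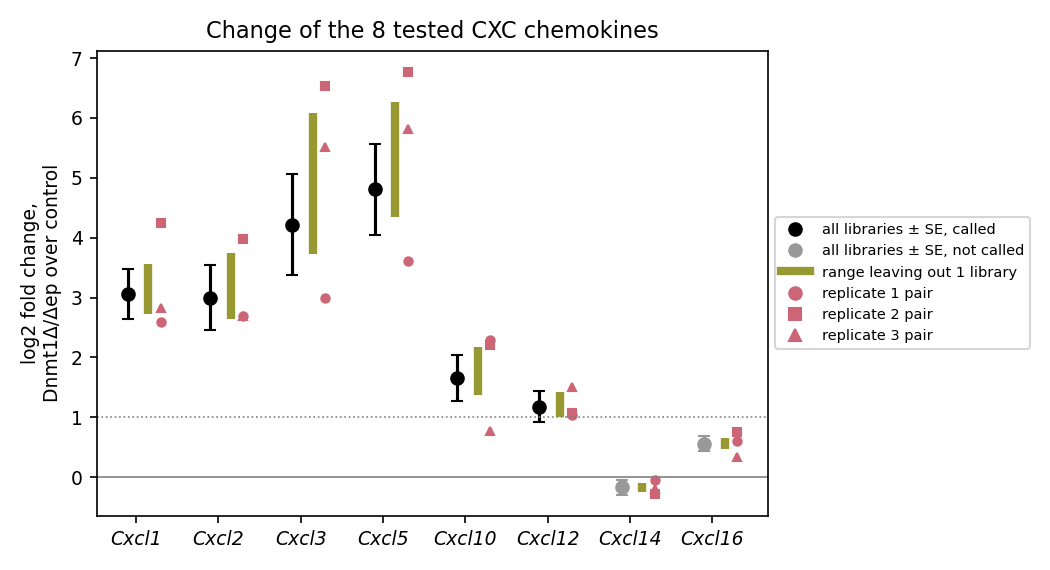
Log2 fold change of Dnmt1Δ/Δep over control for the 8 tested CXC chemokine genes. Black (called) and grey (not called) points with bars give the estimate from all libraries ± SE, olive bars the range when 1 library is left out, and red symbols the ratio within each same-numbered pair of libraries. The dotted line marks the threshold of 1, and the within-pair ratios of Cxcl3 and Cxcl5 run from 3.0 to 6.77.

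The 2 interferon-induced genes lie close together on chromosome 5. Cxcl10 (ENSMUSG00000034855, chr5:92346638-92348889, - strand), which draws CXCR3-bearing lymphocytes, was at 1.33, 1.89 and 3.74 CPM in control and 6.61, 8.77 and 6.42 CPM in Dnmt1Δ/Δep libraries. The groups did not overlap, but the distance between the highest control and the lowest Dnmt1Δ/Δep library, both replicate 3, was smaller than for any neutrophil-attracting gene on the log scale, and the log2 ratios within lanes were 2.29, 2.2 and 0.77. The log2 fold change was 1.66 (SE 0.38, adjusted p = 0.038 from edgeR). The call was lost without control replicate 2 (1.53, adjusted p = 0.14 from edgeR) and without Dnmt1Δ/Δep replicate 1, 2 or 3 (1.72, 1.45 and 1.74, adjusted p = 0.098, 0.12 and 0.082 from edgeR). A filter that kept only genes of a higher mean level also ended it (1.67, adjusted p = 0.054 from edgeR).

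Cxcl10 shared 5.9% of its exonic bases with Art3, an ADP-ribosyltransferase gene on the opposite strand that was also upregulated (log2 fold change 1.13, adjusted p = 0.014 from edgeR). Reads in the shared bases cannot be assigned to one of the genes if counting ignored strand, and the counting strand is not given in the sources used here. Cxcl9 (ENSMUSG00000029417, chr5:92321347-92328079, - strand) was near the limit of detection, with 4, 0 and 0 reads in control and 2, 3 and 10 reads in Dnmt1Δ/Δep libraries. It was not tested, its groups overlapped, and a change of Cxcl9 was not detectable at this depth.

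Of the constitutive genes, Cxcl16 was the most abundant and Cxcl12 the least. Cxcl12 (ENSMUSG00000061353, chr6:117168535-117181367, + strand), the ligand of CXCR4 and ACKR3, was at 2.88, 2.11 and 1.62 CPM in control and 5.94, 4.5 and 4.64 CPM in Dnmt1Δ/Δep libraries. The groups did not overlap, and the log2 ratios within lanes were 1.04, 1.08 and 1.51. The log2 fold change of 1.18 (SE 0.26, adjusted p = 0.031 from edgeR) was just past the threshold of 1. Leaving out any library other than control replicate 1 ended the call, namely control replicate 2 (1.15, adjusted p = 0.12 from edgeR), control replicate 3 (1.01, adjusted p = 0.066 from edgeR) or Dnmt1Δ/Δep replicate 1, 2 or 3 (1.05, 1.21 and 1.24, adjusted p = 0.12, 0.08 and 0.074 from edgeR).

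Cxcl12 is commonly made by stromal cells, and the 9 fibroblast markers had a median log2 fold change of 1.23, although none was called by edgeR (4 at an unadjusted p under 0.05, and Vim by DESeq2, which called 1284 of 16821 genes upregulated). Their summed level was 85.0, 122 and 67.4 CPM in control and 264, 103 and 260 CPM in Dnmt1Δ/Δep libraries, most of it Vim (64.2, 87.9 and 51.7 against 197, 85.7 and 197 CPM). In Dnmt1Δ/Δep replicate 2 this sum lay within the control range, and Cxcl12 of the same library, at 4.5 CPM, lay above all controls. In RNA of a whole culture, a change in the number of cells of a type and a change in RNA per cell cannot be told apart.

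Cxcl14 (ENSMUSG00000021508, chr13:56288643-56296551, - strand), a chemokine of resting skin and other epithelia, was at 87.4, 94.8 and 77.7 CPM in control and 85.2, 77.9 and 67.7 CPM in Dnmt1Δ/Δep libraries. The groups overlapped. The log2 fold change was -0.17 (SE 0.12, adjusted p = 0.47 from edgeR), and it lay between -0.25 and -0.09 when single libraries were left out. Cxcl16 (ENSMUSG00000018920, chr11:70453983-70459984, - strand) was at 190, 155 and 174 CPM in control and 289, 260 and 220 CPM in Dnmt1Δ/Δep libraries. All Dnmt1Δ/Δep libraries were above the controls, and the log2 fold change of 0.56 (SE 0.13, adjusted p = 0.04 from edgeR) passed the test but not the threshold of 1. Its log2 ratios within lanes were 0.6, 0.75 and 0.34, and without single libraries its adjusted p from edgeR ran from 0.029 to 0.16. Of its exonic bases 18.3% overlap Zmynd15 on the opposite strand, a gene whose mean rose from 2.19 to 5.71 CPM (adjusted p = 0.0089 from edgeR), far below the level of Cxcl16.

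To compare levels between genes, CPM were divided by the length of the longest coding transcript (RPKM, that is CPM per kilobase of transcript). In control libraries the order was Cxcl16 (64.2 ± 6.65 RPKM, SD, n = 3), Cxcl14 (47.4 ± 4.69), Cxcl1 (15.4 ± 8.54), Cxcl3 (2.39 ± 2.93), Cxcl5 (2.05 ± 2.21), Cxcl10 (1.72 ± 0.932), Cxcl2 (0.516 ± 0.356), Cxcl12 (0.391 ± 0.112) and Cxcl9 (0.00488 RPKM, with 0 reads in 2 libraries). The neighbours Cxcl3 and Cxcl5, Cxcl5 and Cxcl10, and Cxcl2 and Cxcl12 overlapped in range. Cxcl3 was above Cxcl5, and Cxcl5 above Cxcl10, in 1 of the 3 control libraries, replicate 1. In control replicates 2 and 3 Cxcl10 came first (1.4 and 2.77 RPKM), then Cxcl5 (0.528 and 1.04) and Cxcl3 (0.465 and 0.934). In Dnmt1Δ/Δep libraries Cxcl1 (129 ± 21.2 RPKM) came first, ahead of Cxcl16 (94.9 ± 12.7), Cxcl5 (58.3 ± 1.93), Cxcl3 (45.1 ± 1.29) and Cxcl14 (42.1 ± 4.8). They were followed by Cxcl10 (5.37 ± 0.964 RPKM), Cxcl2 (4.16 ± 1.71), Cxcl12 (0.893 ± 0.141) and Cxcl9 (0.0177). The ranges of Cxcl1 and Cxcl16 overlapped, though Cxcl1 was the higher one in 3 of 3 libraries, and so did those of Cxcl3 and Cxcl14 and of Cxcl10 and Cxcl2.

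Set against 14060 tested coding genes, Cxcl1 moved from above 65.6% of them in control to above 96.9% in Dnmt1Δ/Δep libraries, Cxcl3 from 31.7% to 87.9% and Cxcl5 from 30.1% to 91.0%. Cxcl14 was above 88.4% and 86.9%, and Cxcl16 above 92.0% and 95.3%. These places rest on group means, and the control means of Cxcl3 and Cxcl5 were raised by replicate 1 (5.76 and 4.58 RPKM). The place of Cxcl1 ahead of Cxcl16 depended on the length used, because with the exons of all annotated transcripts joined Cxcl1 was at 65.5 and Cxcl16 at 84.8 RPKM in Dnmt1Δ/Δep libraries. By the same measure Cxcl3 fell from 4th to 6th place in control and from 4th to 5th in Dnmt1Δ/Δep libraries.

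The summed level of the 9 genes was 155, 119 and 127 RPKM in control and 414, 389 and 335 RPKM in Dnmt1Δ/Δep libraries. The neutrophil-attracting genes gave 22.8%, 6.96% and 13.6% of this sum in control and 61.5%, 62.5% and 62.9% in Dnmt1Δ/Δep libraries. These shares depend on the length used, and with the joined exons of all transcripts, a choice added after the data were seen, they were 14.3%, 4.04% and 8.17% in control and 49.0%, 50.4% and 51.1% in Dnmt1Δ/Δep libraries. The constitutive genes gave 76.5%, 91.9% and 84.3% in control and 37.4%, 35.8% and 35.7% in Dnmt1Δ/Δep libraries, with Cxcl14 and Cxcl16 making up nearly all of it. The interferon-induced genes, almost wholly Cxcl10, stayed small at 1.0 to 2.77 RPKM in control and 4.77 to 6.49 RPKM in Dnmt1Δ/Δep libraries.

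**Figure D3:**
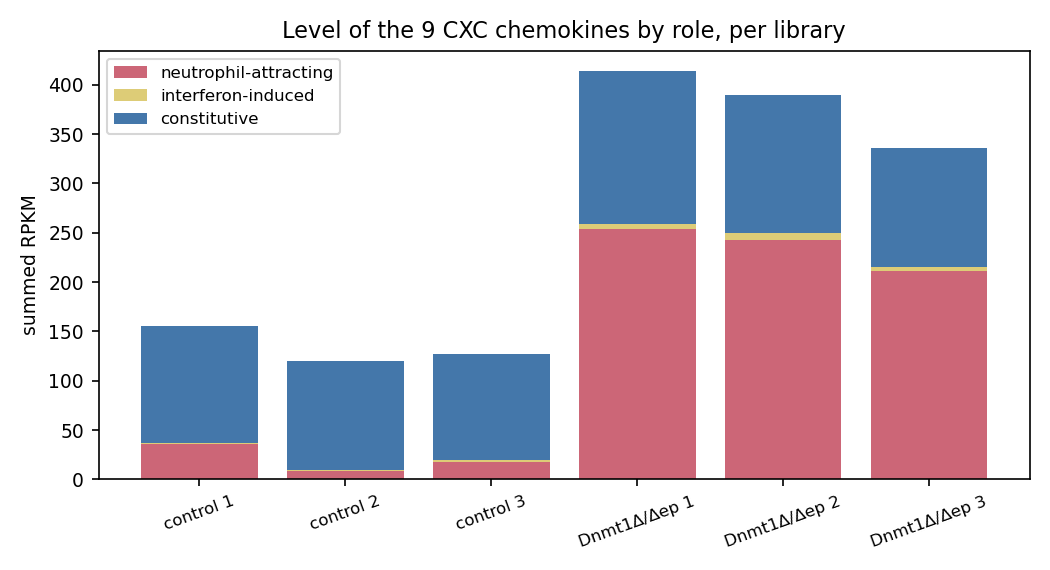
Summed RPKM of the 9 CXC chemokine genes in each library, stacked by role (neutrophil-attracting, red; interferon-induced, yellow; constitutive, blue), with the length of the longest coding transcript. The neutrophil-attracting share lies between 6.96% and 22.8% in the 3 control libraries and from 61.5% to 62.9% in the Dnmt1Δ/Δep ones, or from 4.04% to 14.3% and from 49.0% to 51.1% with joined exons.

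Roles were compared by the log2 ratio of 1 gene of each role within a library. Cxcl1 over Cxcl14 was -1.92, -3.81 and -2.45 in control and 0.71, 0.72 and 0.57 in Dnmt1Δ/Δep libraries, a difference of 3.39 (exact two-sided permutation test p = 0.1, the smallest that 3 against 3 allows, 0.15 adjusted over 3 comparisons). Cxcl10 over Cxcl14 was -6.04, -5.65 and -4.38 in control and -3.69, -3.15 and -3.4 in Dnmt1Δ/Δep libraries, a difference of 1.94 (exact permutation p = 0.1, adjusted 0.15). Neither pair of groups overlapped. Cxcl14 is the constitutive gene that did not pass the test, so the other 2 were put in its place after the data were seen, which gave 4 further comparisons. The differences of Cxcl1 were then 2.0 over Cxcl12 and 2.66 over Cxcl16, and that of Cxcl10 was 1.21 over Cxcl16, without overlap (exact permutation p = 0.1 each, 0.133 adjusted over the 4). Cxcl10 over Cxcl12, at -1.11, -0.16 and 1.21 in control and 0.15, 0.96 and 0.47 in Dnmt1Δ/Δep libraries, overlapped (difference 0.55, exact permutation p = 0.5, adjusted 0.5). The separation of Cxcl10 from the constitutive genes thus depended on the gene chosen. Cxcl1 over Cxcl10 was 4.11, 1.84 and 1.93 in control and 4.4, 3.87 and 3.97 in Dnmt1Δ/Δep libraries, and these groups overlapped (difference 1.45, exact permutation p = 0.3, adjusted 0.3). Control replicate 1, with high Cxcl1 and low Cxcl10, lay among the Dnmt1Δ/Δep libraries here, but below its own partner. Within the same-numbered pairs Cxcl1 over Cxcl10 was higher in the Dnmt1Δ/Δep library in 3 of 3, by 0.29, 2.04 and 2.04 (exact paired permutation p = 0.25, the smallest that 3 pairs allow), an alternative added after the data were seen.

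Over the 6 libraries, the genes whose profile was most like that of each role's lead gene were found by Euclidean distance of log2 CPM, relative to each gene's control mean, among 12463 genes with a mean of at least 1 CPM. Cxcl2 was the closest of all to Cxcl1 (distance 0.64, where the profile of Cxcl1 itself has a length of 5.73), ahead of 9930038B18Rik (0.74) and Fcna (0.93), which encodes a ficolin. Of the other chemokines Cxcl10 came 320th (distance 3.14), Cxcl3 417th (3.48), Cxcl12 496th (3.67) and Cxcl5 610th (3.96). Cxcl16 came 1299th (4.72) and Cxcl14 9251st (6.04). Closest to Cxcl10 were Cryzl2 (0.29), Lpo (0.44) and Rassf10 (0.48), against a length of 3.24. Seen from Cxcl10, Cxcl1 came only 4272nd, its distance of 3.14 being close to that length. Closest to Cxcl14 were Pagr1a, Timm17b and Gpatch3, at 0.11 each, against a length of 0.43.

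Cxcl5, Cxcl3, Cxcl1 and Cxcl2 lie in this order on the same strand of chromosome 5, in a stretch that also holds the CXC genes Ppbp, Pf4 and Cxcl15. Within 200 kb of the 9 genes stood 63 other genes, 32 of them tested, of which 5 were called upregulated by edgeR, where 6.03% of all tested genes were. At the Cxcl1 stretch these were Ereg, an EGF receptor ligand 183381 bp from the Cxcl1 start (12.4 ± 3.14 to 42.4 ± 14.8 CPM, log2 fold change 1.77, adjusted p = 0.014 from edgeR), and the low-level gene 5830473C10Rik. Between Cxcl2 and Ereg lay Mthfd2l (log2 fold change -0.03, adjusted p = 0.96 from edgeR) and Epgn (0.51, adjusted p = 0.081 from edgeR), neither of which was called. Art3 was called beside Cxcl9 and Cxcl10 (1 of 10 tested within 200 kb of either), and Zmynd15 and Eno3 beside Cxcl16 (2 of 14 tested).

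**Figure D4:**
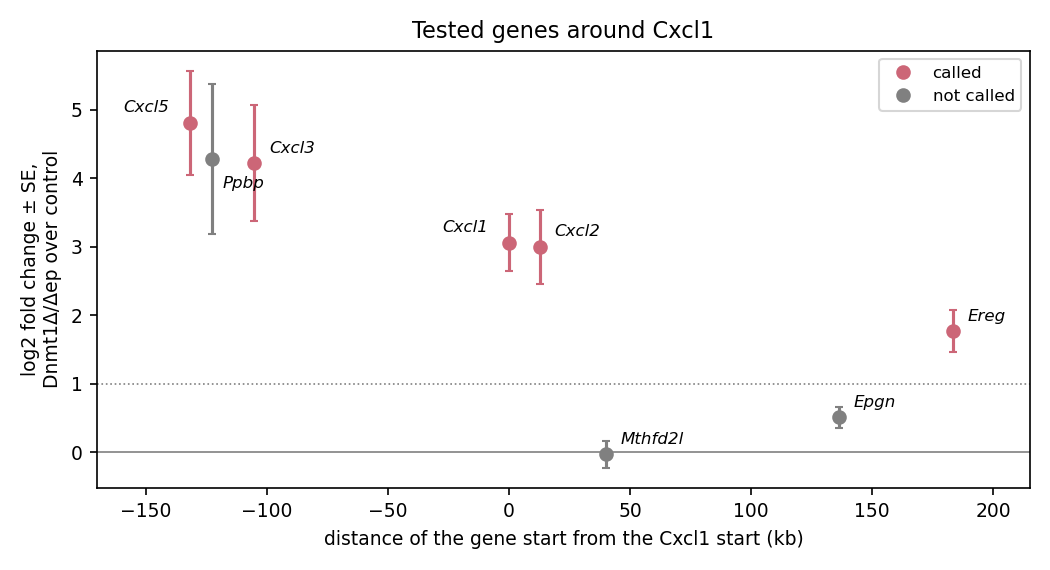
Log2 fold change ± SE (Dnmt1Δ/Δep over control, n = 3 each) of the tested genes within 200 kb of Cxcl1, by the distance of each gene start from that of Cxcl1 in kb. Red genes were called and grey ones were not. Cxcl5, Cxcl3, Cxcl1 and Cxcl2 lie between 3.0 and 4.81, and Mthfd2l, 39876 bp away, at -0.03.

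Of 6 other CXC ligands, 2 were tested and none was called by edgeR, though both had an unadjusted p under 0.05 and were called by DESeq2. Over all genes DESeq2 called 1284 of 16821 upregulated, and edgeR 6.03%. Ppbp, a CXCR2 ligand next to Cxcl5 that is best known from platelets, had 517, 33 and 18 reads in control and 4064, 2604 and 2840 reads in Dnmt1Δ/Δep libraries. Its levels were 2.05 ± 2.96 and 40.8 ± 23.9 CPM (log2 fold change 4.28, SE 1.1, adjusted p = 0.054 from edgeR), and control replicate 1 was again the highest control. Cxcl11, a further CXCR3 ligand that the annotation gives as a polymorphic pseudogene, had 1, 13 and 5 reads in control and 20, 63 and 35 in Dnmt1Δ/Δep libraries (2.52, adjusted p = 0.084 from edgeR). Cxcl13, Cxcl17 and Pf4 had at most 7 reads in a library, and Cxcl15 had none.

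Of 8 CXC receptors, 3 were tested and none was called by edgeR (1 at an unadjusted p under 0.05, called by DESeq2, as were 1284 of 16821 genes). That one was Cxcr2, the receptor of the neutrophil-attracting ligands, at 0.159, 0.195 and 0.409 CPM in control and 1.07, 1.27 and 0.534 CPM in Dnmt1Δ/Δep libraries (log2 fold change 1.95, adjusted p = 0.054 from edgeR). The CXCL12 receptors Cxcr4 and Ackr3 had log2 fold changes of -0.07 and 0.22 (adjusted p = 0.96 and 0.62 from edgeR), with Ackr3, a scavenging receptor, at 24.4 ± 5.84 CPM in control. Cxcr1, Cxcr3, Cxcr5, Cxcr6 and Ackr1 had at most 8 reads in a library.

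Among 20 cytokines, receptors and factors that act through NF-kappaB, all tested, 4 were upregulated, beside 6.03% of all tested genes, with a median log2 fold change of 0.16. The cytokine Il1a, which keratinocytes store and release on damage, was at 9.57, 2.53 and 4.45 CPM in control and 111, 92.0 and 49.5 CPM in Dnmt1Δ/Δep libraries. Its log2 fold change was 3.93 (SE 0.54, adjusted p = 0.0057 from edgeR). Tnf (2.73, adjusted p = 0.0074 from edgeR), the receptor Tlr4 (2.25, adjusted p = 0.001 from edgeR) and the inhibitor Tnfaip3 (1.39, adjusted p = 0.0045 from edgeR) were the others. The inhibitor Nfkbia (0.92, adjusted p = 0.0092 from edgeR) and the cofactor Nfkbiz (0.64, adjusted p = 0.0063 from edgeR) rose by less than the threshold, and the interleukin-1 receptor Il1r1 fell (-0.44, adjusted p = 0.041 from edgeR).

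Among 14 interferon receptors, factors and early targets, all tested, 5 were upregulated, beside the same 6.03%, with a median log2 fold change of 0.58. These were Irf1, a transcription factor of Cxcl10 induction (4.56 ± 0.894 to 17.7 ± 1.02 CPM, log2 fold change 1.96, adjusted p = 0.001 from edgeR), and the targets Gbp2 (2.15), Isg15 (2.97), Ifit1 (3.39) and Rsad2 (3.32), with adjusted p between 0.0063 and 0.038 from edgeR. Among the 5 tested of 6 proteases that shed or trim chemokines, none was called by edgeR or DESeq2 (1 at an unadjusted p under 0.05). Adam10 had a log2 fold change of -0.03 and Adam17 of 0.22 (adjusted p = 0.95 and 0.16 from edgeR).

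AU-rich elements in 3′ untranslated regions shorten the life of many cytokine mRNAs, and the longest coding transcript of each gene was searched for them. The nonamer TTATTTATT occurred 2 times in Cxcl1, 4 times in Cxcl2 and once in Cxcl3, and not in the other 6 genes, where 7.99% of 19750 genes held it. The pentamer ATTTA, which the nonamer contains, occurred 7, 11, 5 and 5 times in Cxcl1, Cxcl2, Cxcl3 and Cxcl5, or 11.82, 7.36, 7.75 and 4.5 times per kb. It occurred at 3.01 per kb in Cxcl10, 1.41 in Cxcl16, 1.22 in Cxcl9, 0.77 in Cxcl12 and not at all in Cxcl14, beside a median of 1.35 and a 90th percentile of 4.5 per kb over all genes. Of 7 factors that bind such elements or degrade their mRNAs, 1 was upregulated, beside 6.03% of all tested genes, and the median log2 fold change was -0.01. It was the ribonuclease Zc3h12a (13.1 ± 6.9 to 58.7 ± 17.4 CPM, log2 fold change 2.17, adjusted p = 0.02 from edgeR). In all 2 of the factors had an unadjusted p under 0.05, 1 of them lower. The lower one was Hnrnpd (310 ± 49.5 to 224 ± 2.42 CPM, log2 fold change -0.47, adjusted p = 0.063 from edgeR). Zfp36, which binds AU-rich elements, had a log2 fold change of 0.3 (adjusted p = 0.25 from edgeR).

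The cultures had the markers of keratinocytes. The 9 keratinocyte markers summed to 30100 to 33800 CPM in control and 22900 to 23700 CPM in Dnmt1Δ/Δep libraries, and none was called by edgeR, although 4 had an unadjusted p under 0.05, all lower. The basal keratins Krt5 (17900 ± 1180 to 12600 ± 112 CPM) and Krt14 (9440 ± 978 to 6180 ± 463 CPM), which make up most of the sum, fell by less than the threshold (log2 fold changes -0.5 and -0.61, adjusted p = 0.038 and 0.028 from edgeR). DESeq2 called 2 markers, Krt1 and Krt10, as lower, where it called 116 of 16821 genes downregulated. These differentiation keratins had log2 fold changes of -2.3 and -1.58 (adjusted p = 0.085 and 0.069 from edgeR), with Krt10 at 9.63, 32.1 and 29.7 CPM in control and 10.6, 7.1 and 6.3 CPM in Dnmt1Δ/Δep libraries. For both keratins the groups overlapped through control replicate 1, the control with the highest neutrophil-attracting chemokines. The part of differentiation in the chemokine values was not tested. The defining neutrophil gene Csf3r had no read in any library, and Ly6g, Mpo, Elane, Camp and Ngp had at most 4, so that the defining neutrophil markers were at or near 0 in the libraries with the upregulated neutrophil chemokines. The other neutrophil markers, S100a8 and S100a9, which keratinocytes also express, were both called (background 6.03%) and took the list's sum from between 49.3 and 126 CPM to between 192 and 253 CPM.

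Of 10 macrophage and dendritic cell markers 4 were tested and 2 called, Csf1r and Itgam, where 6.03% of all tested genes were called upregulated, and the list summed to 49.2 to 63.2 CPM in control and 103 to 120 CPM in Dnmt1Δ/Δep libraries. All 4 tested markers were higher at an unadjusted p under 0.05. Most of the sum was Cd68, which rose by less than the threshold (54.1 ± 7.08 to 106 ± 8.05 CPM, log2 fold change 0.97, adjusted p = 0.0041 from edgeR). Cd74 had 0, 0 and 7 reads in control and 29, 14 and 43 reads in Dnmt1Δ/Δep libraries, H2-Aa 0, 0 and 1 against 8, 5 and 19, and Itgax 0, 0 and 1 against 2, 5 and 5. The macrophage gene Adgre1 had 1 read in 1 Dnmt1Δ/Δep library and none in the other 5 libraries, and Cd207, Ptprc and Lyz2 had 12 reads or fewer in every library. Of 7 endothelial markers 6 were tested and 2 called, Pecam1 and Cdh5 (background 6.03%), with sums of 6.9 to 18.2 and 17.3 to 25.3 CPM (3 at an unadjusted p under 0.05, and Tie1 called in addition by DESeq2, which called 1284 of 16821 genes upregulated). Kdr, the most abundant of them in control, had a log2 fold change of -0.16 (6.81 ± 5.68 to 6.12 ± 2.9 CPM, adjusted p = 0.93 from edgeR). Tek and Vwf were at 0.58 and 0.68 (adjusted p = 0.41 and 0.38 from edgeR). Emcn, not tested, had 26, 5 and 0 reads in control and 19, 0 and 3 reads in Dnmt1Δ/Δep libraries. Cdh5 was at 0.56, 0.113 and 0.0931 CPM in control and 5.82, 4.41 and 3.64 CPM in Dnmt1Δ/Δep libraries, with control replicate 1 the highest control, as for the neutrophil-attracting chemokines. Melanocyte markers summed to 224 to 572 and 688 to 911 CPM, none of 7 being called by edgeR (4 at an unadjusted p under 0.05, and Tyrp1 by DESeq2). Mast cell markers summed to 3.55 to 8.5 and 11.0 to 15.1 CPM, with no edgeR call. Nearly all of this sum was Kit (log2 fold change 1.1, adjusted p = 0.075 from edgeR). Of the mast cell list Kit alone had an unadjusted p under 0.05, and DESeq2 called it. The mast cell genes Cpa3, Mcpt4 and Fcer1a had no read in any library, Tpsb2 at most 1 and Cma1 at most 16. T cell markers summed to 0.74 to 1.04 and 0.386 to 0.682 CPM, most of it Lck. None of them was called by edgeR (1 gene at an unadjusted p under 0.05). The part of these cells in the chemokine values was not tested.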

How the data were processed

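Poly(A)-selected RNA of 3 control and 3 Dnmt1Δ/Δep keratinocyte cultures was sequenced. Per the methods and the submitters' processing notes, the authors trimmed reads and aligned them with STAR. Uniquely mapped reads were assigned to genes by htseq-count, giving the deposited raw counts per Ensembl gene. The notes name GRCm38, whereas the methods name a human build for this step, so positions describe the genes only. The 5 rows that name no gene (8.73% to 12.9% of the reads) were left out. The authors' repeat counts and comparison tables (fold changes, p-values) were not used here.

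Symbols came for 42462 of 43629 identifiers, and positions and transcript lengths from GENCODE M21. Counts were tested with edgeR 4.0.16 (R 4.3.3, TMM, filterByExpr with minimum counts of 10 and 15, quasi-likelihood F test, no block), adjusted by Benjamini-Hochberg over 16829 genes. A call needed a log2 fold change past 1 in size and an adjusted p of 0.05 or less. The SE is the log2 fold change over the root of F. CPM are counts over the library size times the TMM factor, and the likeness of profiles used log2 CPM with a prior count of 2. DESeq2 1.42.0, other scalings and filters, a replicate block and leaving out each library were alternatives. Exact permutation tests used SciPy 1.17.1.

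The chemokines and all gene lists were chosen with earlier results of these data known. All 9 chemokines are named, and of each further list the called genes and up to 4 others. The other ligands, the receptors and the neutrophil, macrophage, endothelial and mast cell markers are named more fully, after their values were seen. 9930038B18Rik, Fcna, Cryzl2, Lpo, Rassf10, Pagr1a, Timm17b and Gpatch3 are named as the 3 nearest profiles, and neighbours as genes within 200 kb. Replicate numbers pair the libraries, which also share a lane: their deviations from the group means correlated at 0.43, 0.28 and 0.3. Replicates of a group differed beyond sampling noise (chi-square per degree of freedom 65.8 to 213).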

Additional observations from a re-analysis of the deposited data

How the results depend on the processing

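Cxcl1 and Cxcl5 kept their call under all 12 alternatives, Cxcl14 was called under none, and no log2 fold change of the 8 tested chemokines changed sign. With single libraries left out, 2 to 6 of the 8 were called upregulated, the lowest being 2 without Dnmt1Δ/Δep replicate 1 and 3 without Dnmt1Δ/Δep replicate 2 or replicate 3. Over all genes these fits called 559 to 1183 upregulated and 15 to 180 downregulated. Each such fit has 1 library less, and the cause of single lost calls was not tested. The number of upregulated genes fell to 395 and downregulated ones to 35 with a mean of at least 1 RPKM in either group, where fewer genes were tested. For this filter RPKM was taken over the joined exons of all transcripts. Of the chemokines 4 were then called, Cxcl10 reached an adjusted p of 0.054 in edgeR, and Cxcl12, below that level, had no value. Downregulated genes rose to 107 without a filter and to 116 with DESeq2, for which the cause was not tested. DESeq2, RLE factors and upper-quartile factors left the number of chemokines called at 6.

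With the replicate block, fitted because same-numbered libraries pair, the log2 fold changes were 3.21 for Cxcl1, 3.14 for Cxcl2, 4.91 for Cxcl3, 5.31 for Cxcl5, 1.77 for Cxcl10, 1.21 for Cxcl12, -0.17 for Cxcl14 and 0.56 for Cxcl16. The block changed no call of a chemokine (6 upregulated, 0 downregulated), and over all genes it gave 1173 upregulated and 95 downregulated. Cxcl9, with at most 10 reads in a library, is limited by depth. Levels per joined exon length were added as an alternative after seeing the data, and they lowered Cxcl1 to 65.5 and Cxcl3 to 13.1 RPKM in Dnmt1Δ/Δep libraries, because the joined exons of these genes are longer.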
